A study of Mus musculus with 23 samples.

Results

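Homeostatic converted and peptide-converted regulatory T (Treg) cells are CD4+ T cells that entered a host without Treg markers and were recovered later as Treg-like cells, by different routes. The arrays of each route were taken by their titles, 3 for homeostatic conversion and 3 for conversion by a targeted peptide, which is 6 of the 23 Affymetrix M430v2 arrays of the series. In the homeostatic groups, Foxp3-GFP- CD4+ cells of BDC2.5 NOD donors went by vein into NOD RAG-/- hosts; RAG loss stops lymphocyte development, so no host T or B lymphocytes are present. After 14 days, GFP+ cells (homeostatic Foxp3+, the converted cells, 3 arrays) and GFP- cells (homeostatic Foxp3-, their partners, 3 arrays) were sorted from spleen and lymph nodes. In the DEC groups, CD4+CD25- cells of HA6.5/Thy1.2/RAG-/- donors on the Balb/c background went into Balb/c hosts, which then got 1 injection of DEC-HAPeptide at 50 ng per mouse. At 3 weeks, CD25+ cells (DEC CD25+, the converted cells, 3 arrays) and CD25- cells (DEC CD25-, their partners, 4 arrays) were sorted from the same organs. Every sort also required CD3 and left out cells with B220, CD8a or CD11b/c, and all mice were 6 to 10 weeks old. Each array pools 2 to 3 mice in the homeostatic groups and 5 to 10 in the DEC groups, so the spread between arrays is a spread between pools. The DEC cells were sorted by CD25 and not by Foxp3.

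The routes differ in strain, host, T cell receptor, lymphocyte-poor against lymphocyte-full host, time after transfer, sort marker and number of pooled mice, and these cannot be told apart in the 6 converted arrays. Sex-linked transcripts, described below, also differed between the systems. The 7 partner arrays differ between the systems in nearly all the same ways. A gene that differed in the same direction between the partners is therefore called system-wide here. The interaction, the within-system difference of the homeostatic route minus that of the DEC route, tests whether converted cells differed between routes by another amount than their partners did.

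Foxp3 is the transcription factor that defines Treg cells, and CD25, encoded by Il2ra, is the high-affinity chain of the IL-2 receptor that they carry at a high level. Treg cells restrain other immune cells through receptors such as Ctla4, secreted factors such as Il10, cytotoxic granules and the release of active TGF-beta, for which the integrin chain Itgb8 is known. Conventional CD4+ cells can gain Foxp3 outside the thymus. Division in a lymphocyte-poor host is one known setting. Another is a low dose of a peptide carried to dendritic cells through an antibody to the receptor DEC-205.

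The T cell genes Cd3e, Cd3d and Cd3g were high on all 13 arrays of both systems. Cd3e lay between 10.73 and 12.01 in log2 intensity, and Cd4 between 8.10 and 11.05. The sex-linked transcripts went against a label: all mice are given as male, yet Xist, the RNA that silences an X chromosome in female cells, measured 11.85 to 13.25 across the 7 DEC arrays, against 7.21 to 7.67 across the 6 homeostatic ones. The Y-linked Eif2s3y lay at 2.96 and 2.89 on the DEC CD25+ and CD25- arrays numbered 1, between 7.64 and 9.21 on the other 5 DEC arrays and between 10.28 and 10.83 on the homeostatic arrays. Results below are therefore also given without the pair of DEC arrays numbered 1, an alternative chosen after the data were seen. Leaving out that pair does not remove the Xist difference, which was present on all 7 DEC arrays. A possible difference in sex thus cannot be told apart from the route, with or without that pair. Median intensities of the 6 converted arrays ran from 77.0 to 81.1, while DEC CD25- replicates 3 and 4 had the lowest of the series, 68.5 and 63.7. Replicate 3 also showed a sign of RNA quality: its Gapdh control probe sets differed by 6.59 on the log2 scale between the 3' and 5' ends, against 1.63 to 3.92 on the other arrays of the series, and its mean correlation with its group was the lowest, 0.938. These 2 arrays enter the partner and interaction results and the shared estimate of spread.

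Converted cells of the 2 routes differed widely. Of 12516 genes tested, 3022 (24.1%) passed an adjusted p of 0.05, 1802 (14.4%) higher in homeostatic and 1220 (9.75%) higher in DEC cells, and 1718 of them by 2-fold or more. The arrays did not overlap between the groups for 2972 of the 3022, against 46.1% of all genes tested. Without both DEC arrays numbered 1, 3102 genes passed, 1766 higher and 1336 lower. The same 2 systems differed as widely between their partners, where 4149 genes (33.1%) passed, 3340 (26.7%) higher in homeostatic and 809 (6.46%) higher in DEC cells. The median partner difference over all genes was 0.23 on the log2 scale, and the share of called genes on the homeostatic side was 80.5%; it became 47.6% after quantile and 54.2% after cyclic loess normalization, which moved that median to -0.06 and 0.00. Partner differences below are best read against that shift. Counts of called list members below stand against 24.1% of all genes between converted cells and 33.1% between partners.

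Most of the difference between the converted cells was also present between the partners. Of the 3022 genes, 2133 were system-wide, 1527 higher and 606 lower in homeostatic cells, which is 17.0% of all genes tested. A further 9 differed between the partners in the opposite direction. The remaining calls fell mainly on the DEC side: of the 889 genes that were not system-wide, 275 were higher in homeostatic and 614 higher in DEC converted cells, and for 619 of the 889 the partner comparison did not reach even an unadjusted p of 0.05. Missing that threshold does not show that the partners were alike. Without both dim DEC CD25- arrays, 261 of the 889 were called between partners in the same direction, 20 higher and 241 lower, so the lean to the DEC side rests in part on those 2 arrays.

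**Figure D1:**
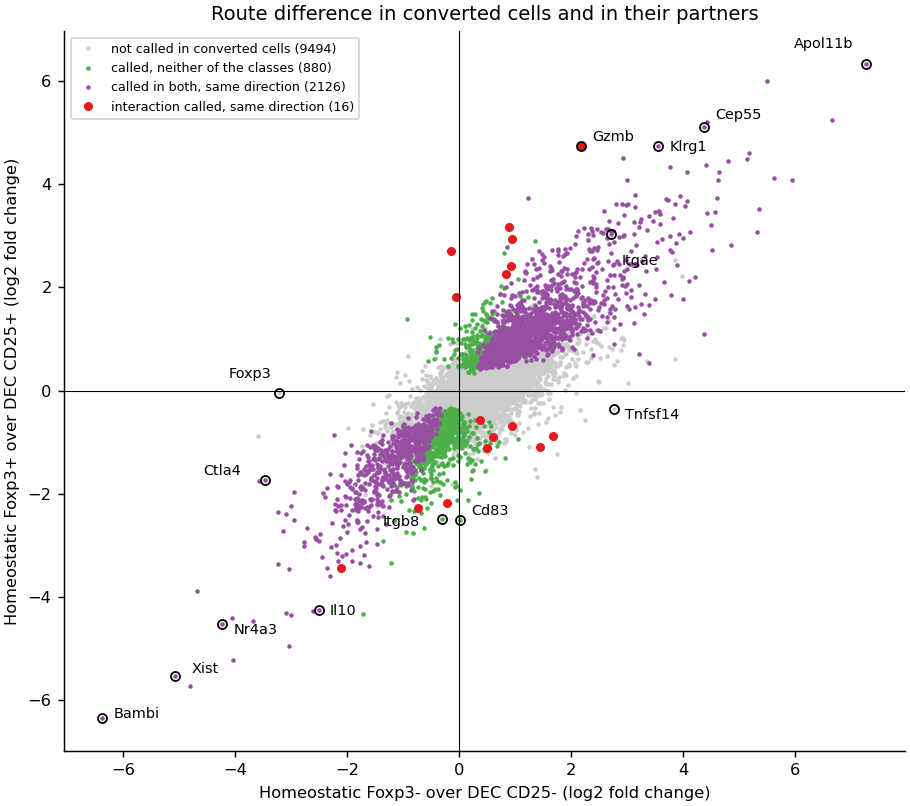
Log2 fold change between the routes for each of the 12516 genes tested, in converted cells (vertical, homeostatic Foxp3+ over DEC CD25+, 3 arrays each) against partners (horizontal, homeostatic Foxp3- over DEC CD25-, 3 and 4 arrays); colours mark the call classes with their gene counts, and no error is drawn. Bambi, Xist and Apol11b lie far out on both axes, Gzmb lies above the main band, and Foxp3 lies near 0 on the vertical axis and at -3.21 on the horizontal one.

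Foxp3 itself did not separate the converted cells. Its level was 10.42, 10.35 and 10.49 in log2 intensity on the homeostatic Foxp3+ arrays and 10.38, 10.55 and 10.46 on the DEC CD25+ arrays, so the groups overlapped. The difference was -0.05 ± 0.30 (SE; adjusted p = 0.93). The partners did differ: Foxp3 lay between 4.71 and 4.81 in homeostatic Foxp3- cells and between 6.92 and 8.48 in DEC CD25- cells, a difference of -3.21 ± 0.28 (adjusted p = 2.9e-07). The interaction was 3.17 ± 0.41 (adjusted p = 0.00066). The sort markers differ here, GFP against CD25, so the partner groups are not the same kind of leftover cell. For the Foxp3 interaction, the effect of these sorts and a difference between the routes cannot be told apart.

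Il2ra was higher in homeostatic converted cells, at 11.64, 11.41 and 11.41 against 9.73, 10.49 and 10.26. The groups did not overlap, and the difference was 1.32 ± 0.31 (2.50-fold; adjusted p = 0.0053). A second Il2ra probe set gave 0.66, with means of 8.83 and 8.18. The partners differed by 1.10 ± 0.29 (adjusted p = 0.0086), and Il2ra is thus system-wide by the rule above. Their arrays overlapped, at 7.02 on homeostatic Foxp3- array 3 and 7.15 on DEC CD25- array 2. CD25 was a sort marker in the DEC system alone, and DEC CD25- cells were chosen to lack it. For Il2ra a difference between the systems and the effect of that sort cannot be told apart.

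Gzmb, the cytotoxic protease granzyme B, gave the clearest marker difference. It lay at 12.61, 12.05 and 12.58 in homeostatic Foxp3+ cells and at 7.002, 7.90 and 8.15 in DEC CD25+ cells. The homeostatic arrays all stood above the DEC ones, by 4.73 ± 0.26 on the log2 scale (26.6-fold; adjusted p = 1.7e-09). Partners differed by less, 8.44, 8.89 and 8.42 against 6.33 to 6.498, a difference of 2.17 ± 0.24. The interaction of 2.56 ± 0.35 passed (adjusted p = 0.0013), and it was 2.19 (adjusted p = 0.0041) without both DEC arrays numbered 1. Gzmb is both system-wide and, by this test, different by route beyond the partners. The DEC CD25- arrays lay near 6.27, the median of all values, where background can hold a level up. That would make the partner difference too small and the interaction too large.

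Itgae, the chain that makes the integrin CD103, was higher in homeostatic cells but in both populations. Levels were 12.84, 12.94 and 13.06 against 8.57, 10.74 and 10.42. The low DEC array was number 1, and the difference was 3.03 ± 0.50 (8.20-fold; adjusted p = 0.00026), or 2.36 without both arrays numbered 1. A second probe set gave 3.02. Partners differed by 2.71 ± 0.47, and the interaction was 0.32 ± 0.68 (adjusted p = 0.91). Klrg1, a lectin-like receptor of highly differentiated T cells, was also higher in both homeostatic populations. It lay at 14.01, 12.98 and 13.71 against 8.38, 8.85 and 9.27, a difference of 4.73 ± 0.33 (26.6-fold; adjusted p = 4e-08), with 3.55 ± 0.31 between partners. The Klrg1 interaction was 1.18 ± 0.46 (adjusted p = 0.48), and 1.11 (adjusted p = 0.037) with the replicate number as a fixed block within each system. It missed the threshold with the number as a random block within each system (adjusted p = 0.086) or a fixed block across systems (0.53).

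Itgb8, Ctla4 and Il10 were higher in DEC converted cells. Itgb8 lay at 4.68, 4.93 and 5.42 in homeostatic Foxp3+ cells, under the line of 6.27 that stands for the median of all values, and at 7.59, 6.89 and 7.998 in DEC CD25+ cells. No array overlapped, and the difference was -2.48 ± 0.40 (at least 5.58-fold; adjusted p = 0.0002). Where the lower group lies under that line, here and below, background can hold it up, so the fold is given as at least. Between partners Itgb8 differed by -0.31 ± 0.37 (adjusted p = 0.54), with DEC CD25- arrays at 6.02, 4.46, 6.05 and 4.43. Both partner groups lay under the line, so background could hide a difference between them. The interaction was -2.17 ± 0.54 and missed the threshold (adjusted p = 0.11). It passed with the replicate number as a block within each system (adjusted p = 0.0098 as a random and 0.0088 as a fixed effect). It missed with a fixed block across systems (adjusted p = 0.065).

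Ctla4 was lower in homeostatic cells in both populations. The converted arrays were at 11.99, 12.17 and 11.69 against 13.81, 13.78 and 13.47, with no overlap. The difference of -1.73 ± 0.60 (3.33-fold) passed narrowly (adjusted p = 0.044), and it lost the call when any 1 of the 6 converted arrays was left out (adjusted p from 0.077 to 0.12), without both DEC arrays numbered 1 (0.071), with a random replicate block (0.055), with only the 13 arrays of both systems in the fit (0.10) and with no filter (0.054). The partners differed by -3.47 ± 0.56, with homeostatic Foxp3- arrays spread over 8.29, 10.71 and 7.68. Il10, the suppressive cytokine, lay at 6.54, 6.61 and 6.58 in homeostatic and 10.998, 10.99 and 10.47 in DEC converted cells. This is -4.25 ± 0.41 (19.0-fold; adjusted p = 1.4e-06), beside -2.51 ± 0.38 between partners, where DEC CD25- cells lay between 8.19 and 9.76. Homeostatic cells of both kinds stayed near the line, at 6.45 to 6.61.

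**Figure D2:**
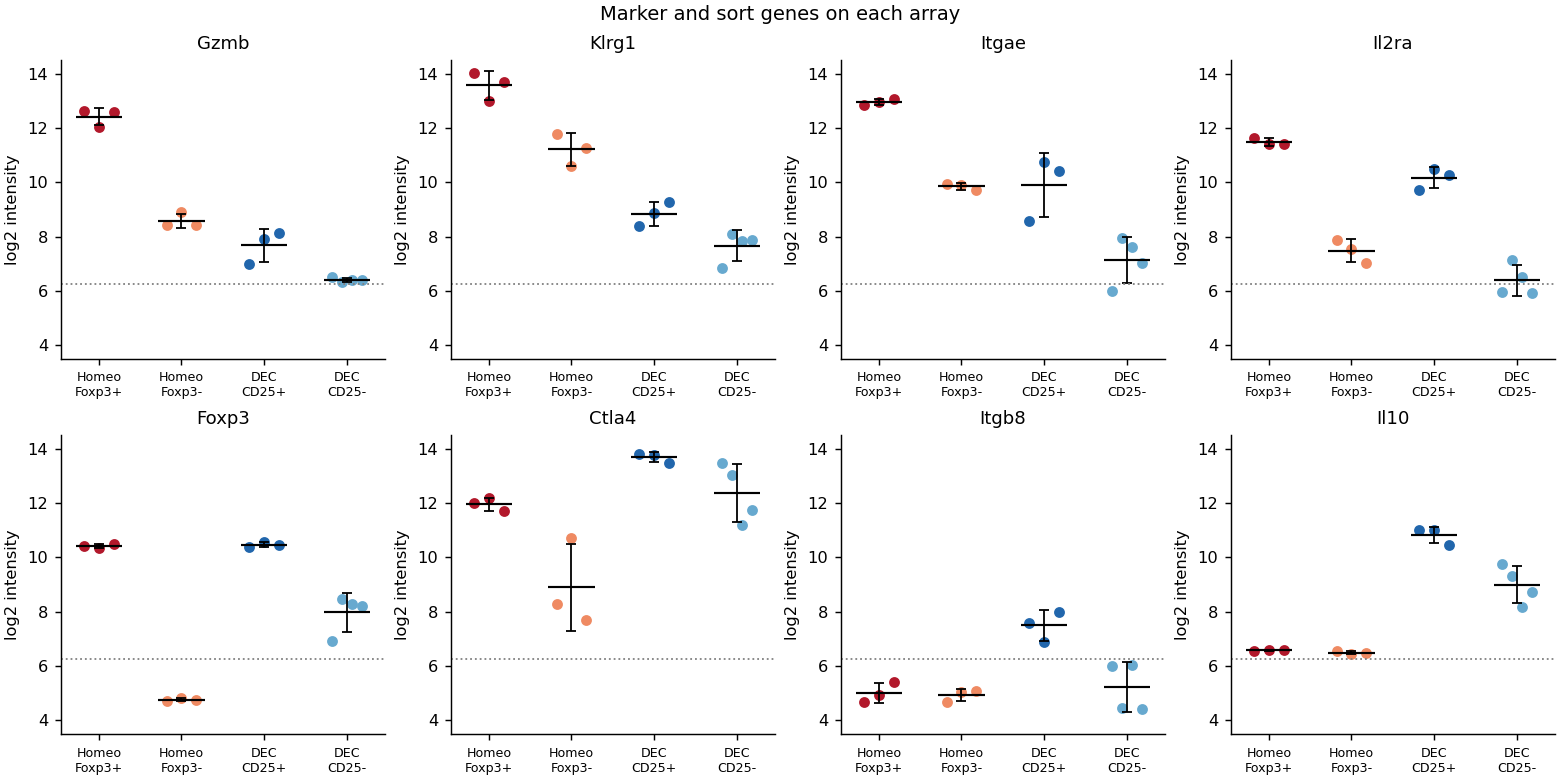
Log2 intensity of 8 marker and sort genes on each array (points, in replicate order) of the 4 groups, with the group mean and SD; the dotted line is the median of all values, 6.27. Gzmb, Klrg1, Itgae and Il2ra are highest in homeostatic Foxp3+ cells, Foxp3 is level between the converted groups, and Ctla4, Itgb8 and Il10 are highest in DEC CD25+ cells.

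The wider Treg signature leaned to the homeostatic side. The list mixes genes known to be high in Treg cells. Of 37 tested members 16 were higher and 4 lower in homeostatic converted cells (54.1% against 24.1% of all genes). The median difference was 0.35 against 0.05 over all genes. Without both DEC arrays numbered 1 the counts were 13 and 3. Between partners 13 were higher and 5 lower, and 12 members were system-wide. S100a6, a calcium-binding protein, was 8.29-fold higher (3.05 ± 0.35). Rgs16, a brake on G protein signalling, was 10.6-fold lower in homeostatic cells, at 7.92, 8.93 and 7.57 against 11.71, 10.96 and 11.95. Both were system-wide.

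Secreted suppressor and repair mediators split by gene. Of 13 tested, 8 were higher and 2 lower in homeostatic converted cells (median 1.15), and 8 and 3 without both DEC arrays numbered 1. Fgl2, a secreted suppressive fibrinogen-like protein, was at 9.23, 8.50 and 9.11 against 5.47, 6.69 and 6.50 (at least 6.61-fold; adjusted p = 1.4e-05). Lgals3, the beta-galactoside-binding galectin-3, was 5.40-fold higher, and Il10 went the other way. Both Fgl2 and Lgals3 were also higher in homeostatic partners, by 4.51 ± 0.31 and 3.90 ± 0.31. Of this list 7 members were system-wide.

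Cytotoxic granule genes were higher in both homeostatic populations. In the granzyme and cytotoxic granule list 8 of 16 tested genes were higher and 1 lower in homeostatic converted cells (56.2% against 24.1% of all genes, median 1.15). Homeostatic partners gave 10 and 1 (68.8% against 33.1%), with a median of 1.79 against 0.23 over all genes. Nkg7, a granule membrane protein, lay at 12.20, 11.68 and 12.43 against 7.02, 8.34 and 8.27, an 18.8-fold difference (4.23 ± 0.40; adjusted p = 1.1e-06). Gzma, granzyme A, lay at 9.10, 11.03 and 9.91 against 5.85, 6.07 and 5.88 (at least 16.9-fold), and Gzmk was 11.9-fold higher. Gzma was higher still in homeostatic Foxp3- cells, at 12.01 to 12.03, so that Gzmb is the member of this list whose level was highest in the converted cells themselves among the 4 named.

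The annexin, S100 and galectin list moved in the same way, with 11 of 20 tested genes higher and 1 lower in homeostatic converted cells (median 1.08), the same 11 and 1 in number without both DEC arrays numbered 1, and 12 and 1 between partners. Anxa1, an anti-inflammatory phospholipid-binding protein, was 7.12-fold higher (2.83 ± 0.27; adjusted p = 1.1e-06), and Anxa4 5.92-fold. The neutrophil protein S100a9 was also called, at 7.56, 9.70 and 8.62 against 4.96 to 5.37, and it is a myeloid marker as well. Its array number 2 was highest, as were the myeloid marker levels described below.

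Cell cycle genes gave the most one-sided list. Of 49 tested, 39 were higher in homeostatic converted cells and 0 lower at an adjusted p under 0.05 in limma, with a median difference of 2.09, and 37 and 0 without both DEC arrays numbered 1. Partners showed 40 higher and 0 lower, with a median of 1.65. The mean level of the list lay between 9.84 and 9.99 on the homeostatic Foxp3+ arrays and between 7.67 and 8.06 on the DEC CD25+ arrays. Homeostatic Foxp3- cells lay between 9.11 and 9.58 and DEC CD25- cells between 7.45 and 7.76, so both homeostatic populations stood clear of both DEC ones. Prc1, which bundles microtubules between separating chromosomes, was at 10.58, 10.73 and 10.63 against 7.62, 8.24 and 8.11 (6.31-fold; adjusted p = 7e-07). Ccne1, cyclin E1 of the entry into S phase, was 6.78-fold higher, Aurkb, a mitotic kinase, 8.80-fold and Nusap1, a spindle protein, 12.2-fold. Cep55, which acts at the final cut between daughter cells and stands outside the list, was at 10.72, 10.40 and 10.90 against 5.60, 5.13 and 5.97, at least 34.5-fold.

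Promoter letters, which were not used to choose the list, were compared with all genes. Among 40 cell cycle genes with a promoter window in RefSeq (GRCm38.p6, 250 bases before to 50 after the start, both strands), TTTGAA, the core of the cell cycle homology region, occurred in 21 (52.5%), against 20.2% of all 27025 genes with a window. CCAAT occurred in 32 (80.0%) against 41.1%, and the E2F letters TTTCCCGC in 3 (7.5%) against 1.24%. Ccne1 and Nusap1 held none of the letters searched. Members called between converted cells, with the smallest p and TTTGAA in the window, were taken. The 200 bases before the start are shown for 2 of them that held TTTGAA there. Capitals mark both common motifs on either strand. Prc1 lies at chr7:80294276-80294475 on the plus strand, and Kif22, a chromosome-moving kinesin, at chr7:127042421-127042620 on the minus strand.
Prc1: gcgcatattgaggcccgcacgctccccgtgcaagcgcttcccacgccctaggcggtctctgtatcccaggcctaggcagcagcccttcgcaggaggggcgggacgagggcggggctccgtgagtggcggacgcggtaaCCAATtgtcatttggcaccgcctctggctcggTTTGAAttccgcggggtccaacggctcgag
Kif22: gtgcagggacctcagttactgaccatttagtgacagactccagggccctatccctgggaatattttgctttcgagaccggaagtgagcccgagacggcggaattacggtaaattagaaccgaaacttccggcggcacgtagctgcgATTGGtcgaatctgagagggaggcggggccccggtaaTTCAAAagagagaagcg
A match describes letters and not a bound site.

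Immediate early genes, which are induced within minutes by receptor signals, were the counterpart on the DEC side. Of 27 tested, 14 were lower and 1 higher in homeostatic converted cells (median -1.59), 13 and 1 without both DEC arrays numbered 1, and 10 and 2 between partners (median -1.07). Nr4a3, an orphan nuclear receptor induced by T cell receptor signals, lay at 8.56, 9.18 and 8.69 against 13.52, 13.39 and 13.08 (-4.52 ± 0.43; adjusted p = 1.4e-06). Its relative Nr4a2 lay at 4.86, 7.10 and 5.11 against 11.62, 11.23 and 11.39, at least 52.8-fold lower. Rel, the NF-kB subunit c-Rel, was 4.80-fold lower. The mean of the list ranged widely among homeostatic Foxp3+ arrays, at 9.44, 10.15 and 8.87, against 10.91 to 11.15 on DEC CD25+ arrays, and among DEC CD25- arrays it lay between 9.61 and 11.04. Egr2, a zinc finger factor of T cell receptor responses, passed between the converted cells and not between partners: it was 3.60-fold lower in homeostatic cells (-1.85 ± 0.31; adjusted p = 0.00028), while partners differed by -0.03 ± 0.29 and the interaction of -1.82 ± 0.42 missed the threshold (adjusted p = 0.083).

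In promoter windows of 22 immediate early genes, TGACGTCA, the cyclic AMP response element, occurred in 4 (18.2%) against 2.03% of all genes, and the AP-1 letters TGANTCA in 1 (4.55%) against 8.97%. Of the carriers of TGACGTCA, Ppp1r15a and Nfkbid were called between converted cells, and Dusp1 and Btg2 were not. Nr4a2, Nr4a3, Rel and Egr2 held no such element. A pair is shown with the element in capitals: Ppp1r15a, a phosphatase subunit of the stress response, at chr7:45526269-45526468 on the minus strand, and Nfkbid, an atypical NF-kB inhibitor, at chr7:30422206-30422405 on the plus strand.
Ppp1r15a: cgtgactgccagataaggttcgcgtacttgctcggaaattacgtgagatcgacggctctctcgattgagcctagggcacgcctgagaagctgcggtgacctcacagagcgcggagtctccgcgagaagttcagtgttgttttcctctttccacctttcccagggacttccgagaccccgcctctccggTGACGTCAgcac
Nfkbid: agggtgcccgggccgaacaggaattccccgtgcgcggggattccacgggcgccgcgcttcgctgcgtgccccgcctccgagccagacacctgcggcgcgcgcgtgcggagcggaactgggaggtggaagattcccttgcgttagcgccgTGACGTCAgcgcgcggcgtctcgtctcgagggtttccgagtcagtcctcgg

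T cell receptor signalling genes gave 3 higher and 7 lower of 29 tested in homeostatic converted cells (34.5% against 24.1% of all genes; median -0.17), and 3 and 11 without both dim DEC CD25- arrays, beside 5 and 3 between partners. Ubash3a, a phosphatase-like inhibitor of the receptor pathway, lay at 6.14, 5.75 and 6.93 against 9.85, 10.06 and 9.17 (10.7-fold lower; adjusted p = 5.9e-06). Cblb, a ubiquitin ligase that limits activation, was 7.67-fold lower, and both were system-wide. Ptpn22, an inhibitory phosphatase, was 4.32-fold lower, with a partner difference of -0.04 ± 0.33 and an interaction of -2.08 ± 0.49 (adjusted p = 0.088). Themis, a scaffold of receptor signalling, was 2.58-fold higher.

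Genes of TGF-beta activation and signalling that passed were higher in DEC converted cells. Of 20 tested, 0 were higher and 6 lower in homeostatic cells at an adjusted p under 0.05 in limma (30.0% against 24.1% of all genes; median -0.65), and 0 and 5 without both DEC arrays numbered 1; quantile and cyclic loess normalization each gave 0 and 10, and without both dim DEC CD25- arrays the count was 1 and 12. Between partners 4 of the 20 were higher and 5 lower (45.0% against 33.1% of all genes), and 4 of the 20 were system-wide. Besides Itgb8, the repressors Tgif1 and Skil were at least 6.17-fold and 1.81-fold lower in homeostatic converted cells. Tgfb1, the cytokine, was at 6.89, 7.23 and 7.04 against 7.72, 7.45 and 7.77, 1.51-fold lower (adjusted p = 0.0056), and lost its call when probe sets were averaged (adjusted p = 0.40). Bambi, a decoy receptor that dampens TGF-beta signals and stands outside the list, had the largest fall among the system-wide genes: 6.08, 6.60 and 6.13 against 12.29, 12.85 and 12.69, 81.1-fold (-6.34 ± 0.21), and -6.37 ± 0.20 between partners.

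**Figure D3:**
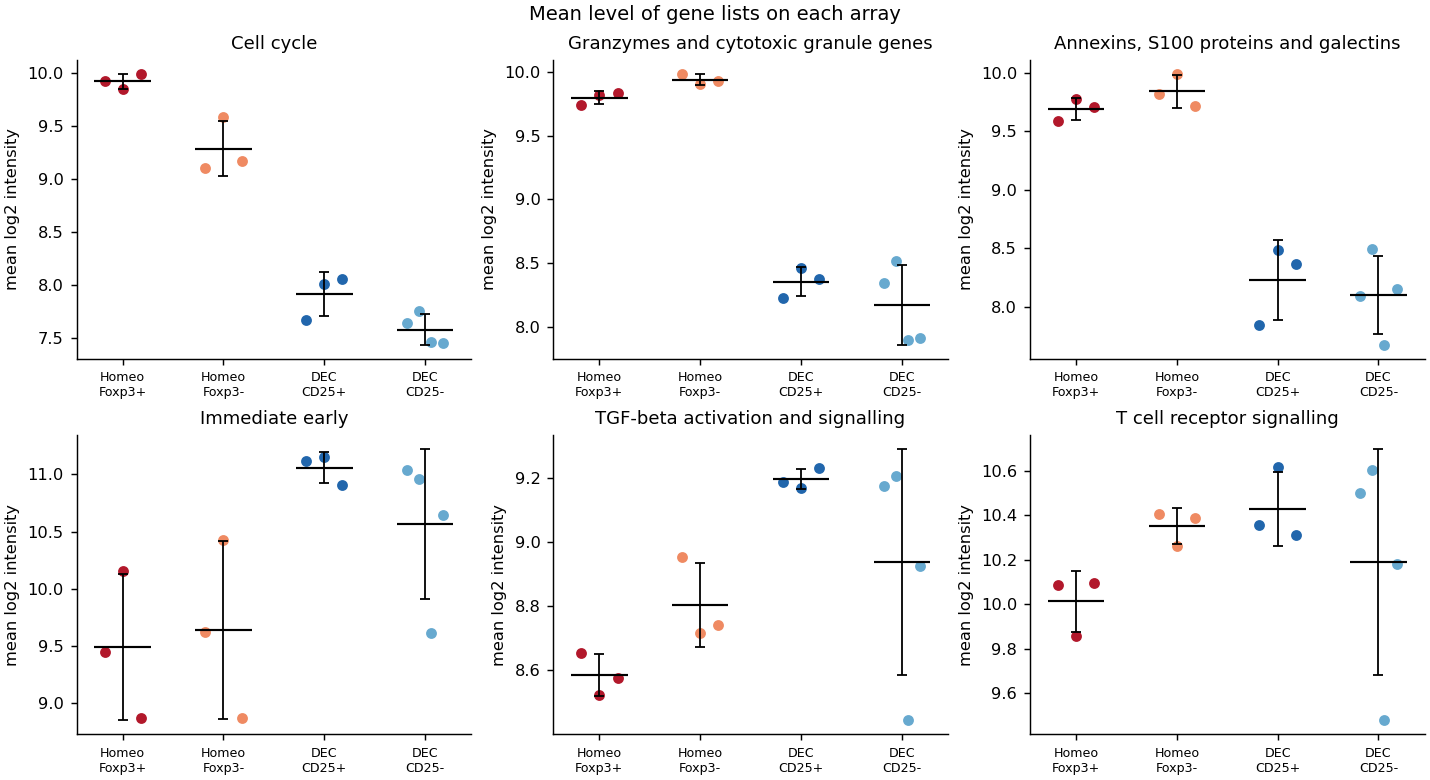
Mean log2 intensity over the tested members of 6 gene lists on each array (points, in replicate order) of the 4 groups, with the group mean and SD; the vertical axes do not start at 0 and differ between panels. Cell cycle, granzyme and annexin lists are high in both homeostatic groups, and the immediate early list is high in DEC CD25+ cells, at 10.91 to 11.15, and on 3 of the 4 DEC CD25- arrays, at 10.64 to 11.04.

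Receptors for position in tissue differed strongly. Of 20 chemokine receptor and homing genes tested, 9 were higher and 3 lower in homeostatic converted cells (median 0.57), and 11 and 5 between partners. Gpr15, a homing receptor for the large intestine, lay at 11.64, 10.69 and 11.26 against 6.93, 6.75 and 6.40 (22.7-fold; adjusted p = 2.9e-08). Ccr2, a receptor for inflammatory chemokines, was 4.98-fold higher, and Gpr183, an oxysterol receptor of lymphoid organs, 5.36-fold lower. Among 16 integrin chains 1 was higher and 2 lower, 18.8% against the 24.1% of all genes. Itga4, which pairs into the gut and tissue integrins, was 6.44-fold lower in homeostatic cells, at 8.96, 9.74 and 9.16 against 12.41, 11.84 and 11.68.

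Regulators of effector state differed gene by gene. Of 27 tested, 3 were higher and 6 lower in homeostatic converted cells (33.3% against 24.1% of all genes, median -0.27). Partners gave 6 higher and 4 lower, and 5 members were system-wide. Eomes, a T-box factor of cytotoxic cells, was at 10.21, 10.55 and 10.56 against 6.16, 6.03 and 6.05, at least 20.6-fold higher (adjusted p = 7.9e-07), and equally so between partners (4.41 ± 0.37). Nfil3 was at least 6.62-fold lower and Rora, a nuclear receptor of tissue lymphocytes, 4.30-fold lower. Bcl6, a repressor of the follicular program, was 2.68-fold lower (-1.42 ± 0.31; adjusted p = 0.0026), with a partner difference of 0.14 ± 0.29. Among 15 naive and central genes 4 were higher and 4 lower (53.3%). Their partner counts were 5 higher and 5 lower (66.7% against 33.1% of all genes), and 6 members were system-wide. Il7r was 2.54-fold and Igfbp4 4.03-fold higher, while Ccr7, the lymph node homing receptor, was 4.94-fold and Foxp1 3.11-fold lower. Of 20 conventional T cell genes 6 were higher and 6 lower, with Sema4a 7.51-fold higher, and Pde7a 4.51-fold and Nrip1, a nuclear receptor corepressor, 9.17-fold lower (-3.20 ± 0.33). In partners 8 of these genes were higher and 2 lower, and 7 members, Nrip1 among them, were system-wide.

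Surface receptors of costimulation gave equal counts. Of 20 coinhibitory and costimulatory receptors 4 were higher and 4 lower (40.0% against 24.1% of all genes; median -0.02), with Havcr2 at least 4.25-fold higher, Cd48 6.02-fold higher and Slamf6 2.59-fold higher. Of 17 TNF receptors 3 were higher and 2 lower, 29.4% and so near the 24.1% of all genes, with Cd40 at least 2.67-fold higher and Cd27 2.90-fold lower. The partner counts of this list were 6 and 2, and 3 members were system-wide. Tnfrsf9, the activation receptor 4-1BB, was 2.10-fold higher (adjusted p = 0.023), but not without both DEC arrays numbered 1 (adjusted p = 0.059). Among 9 IL-1 and IL-18 family receptors 6 were higher and 1 lower (77.8%, median 1.11), beside 4 and 0 between partners, and 4 members were system-wide. Il18r1 was 2.15-fold and Il18rap 2.46-fold higher.

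The genes that differed most between converted cells and were not system-wide lay mainly on the DEC side. Gpm6b, a membrane glycoprotein, was at 4.82, 6.11 and 5.81 against 10.92, 9.56 and 9.23 (at least 20.1-fold lower; adjusted p = 0.00023). Ramp3, a partner of the calcitonin receptor family, lay at 7.48, 7.76 and 7.80 against 11.42, 10.63 and 11.03 (10.2-fold). Zbtb20, a repressor, was 7.49-fold lower, Vgll4, a cofactor of TEAD factors, 6.71-fold, Taf7 6.36-fold, Synpo at least 5.75-fold and Frat2 5.65-fold. For most of these genes the partner test depended on the dim DEC CD25- arrays. Ramp3 was at 7.73 on DEC CD25- replicate 3 and at 11.13 to 11.44 on the other 3 arrays. Its partner difference was -1.22 ± 0.64 (adjusted p = 0.15) and -2.21 ± 0.36 (adjusted p = 0.00032) without both dim arrays. Without them the partner difference also passed for Gpm6b (-2.91), Zbtb20 (-2.03), Vgll4 (-1.76), Taf7 (-1.80), Synpo (-2.37), Frat2 (-2.14) and Tnfsf8 (-1.17), while Itgb8 (-0.31; adjusted p = 0.59) and Cd83 stayed uncalled between partners.

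Cd83, an activation marker that stabilises surface MHC class II, lay at 7.25, 7.52 and 7.05 against 9.36, 10.40 and 9.59 (5.70-fold lower; adjusted p = 0.00021). DEC CD25- cells, at 7.68 to 8.43, overlapped homeostatic Foxp3- cells, at 7.54 to 8.27, and the interaction of -2.53 ± 0.55 had an adjusted p of 0.056. Without both dim arrays its partner difference was -0.27 ± 0.45 (adjusted p = 0.70). Tnfsf8, the CD30 ligand, was 6.80-fold lower (-2.77 ± 0.35), with -0.83 ± 0.33 between partners on all arrays. Bcl2, the survival protein, lay at 9.67, 9.79 and 10.27 against 11.55, 11.62 and 11.22 (2.94-fold lower; adjusted p = 0.011), with 0.23 ± 0.39 between partners.

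On the homeostatic side the genes that were not system-wide had smaller folds. Tubb2b, a tubulin, was at 9.35, 9.54 and 9.02 against 5.63, 6.14 and 7.43 (7.49-fold). Nxpe4 was at 8.91, 8.90 and 9.11 against 6.43, 6.46 and 6.03 (6.36-fold; adjusted p = 6.9e-05). Gsn, the actin-severing protein gelsolin, was 4.46-fold higher, Mxd1, an antagonist of Myc, 4.05-fold and Cyb561 at least 3.98-fold. Cldnd1, Cpox of haem synthesis and Pltp of lipid transfer were 3.64-fold, 3.55-fold and 3.51-fold higher, and Acss2 of acetyl-CoA synthesis at least 3.48-fold. Without both dim DEC CD25- arrays Pltp (1.85) and Acss2 (0.82) were also called between partners. Pltp lost its call between converted cells without DEC CD25+ replicate 1 (adjusted p = 0.067) or homeostatic Foxp3+ replicate 1 (0.076). Drc1, a ciliary protein, was the member of this group that also passed the interaction, at 7.03, 7.74 and 7.79 against 5.64, 5.70 and 5.80, with every partner array between 5.18 and 5.90. Its interaction was 1.85 ± 0.32 (adjusted p = 0.011).

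Other system-wide genes also had large folds. Apol11b lay at 9.13, 12.55 and 11.38 against 4.58, 4.31 and 5.19 (at least 80.3-fold) and Zfp979 at 9.26, 8.71 and 9.33 against 3.04 to 3.15 (at least 64.2-fold). Ear3, an eosinophil ribonuclease, and Myadm were at least 37.6-fold and 36.7-fold higher. Apol11b (12.55 and 12.61) and Ear3 (10.40 and 11.11) were highest on array number 2 of the homeostatic Foxp3+ and Foxp3- groups. So was the mean of the myeloid markers described below. Xist was 46.1-fold lower in homeostatic cells (-5.53; 2 other probe sets gave -8.25 and -0.79, the last under the line in both groups), Trim12c at least 37.2-fold and Lrig1, an inhibitor of growth factor receptors, 30.8-fold. For Zfp979 and Trim12c both populations of one system lay at or under 4.21, and a strain difference in the sequence under a probe cannot be told apart from a difference in level.

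The interaction passed for 42 genes (0.336% of those tested), 10 higher (0.0799%) and 32 lower (0.256%), and for 1053 at an unadjusted p under 0.05. Replicates with the same number deviated together within each system, and with the number as a block within each system 89 genes passed as a fixed effect (22 higher, 67 lower, with 37 of the 42) and 235 as a random effect (55 higher, 180 lower, with all 42). Single arrays moved the count by over 1.5 times: 21 to 27 genes passed without homeostatic Foxp3+ replicate 3 (21) or 1 (26), DEC CD25+ replicate 3 (24) or 2 (25), or homeostatic Foxp3- replicate 3 (27), and 77 and 66 without DEC CD25- replicates 1 and 2. Without both DEC arrays numbered 1, 73 passed. The share on the higher side was 23.8%, and 43.6% after quantile and 46.3% after cyclic loess normalization. For 16 of the 42 genes, 7 higher and 9 lower, the converted comparison was called in the same direction; these comparisons share the converted arrays.

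The genes with the smallest interaction p were mostly high in 1 group, the homeostatic Foxp3- partners. Ryr1, an intracellular calcium release channel, lay at 8.67, 8.58 and 8.75 there and between 4.87 and 6.06 on the other 10 arrays (interaction -2.86 ± 0.25; adjusted p = 2.5e-05). Tnfsf14, the costimulatory cytokine LIGHT, lay at 9.30, 8.21 and 8.49 there and between 4.74 and 6.30 elsewhere (-3.12 ± 0.35). Cxcr6, a tissue-homing chemokine receptor, lay at 10.66, 8.94 and 9.64 there and at or under 6.68 elsewhere (-3.27 ± 0.51; adjusted p = 0.0063). Arfgef3 (-3.24), Ube2e2 (-2.78), Lbp (-1.68) and St6galnac2 (-2.51) had the same pattern, and Cx3cr1, the fractalkine receptor, had it less sharply, at 8.02 to 8.64 against 6.53 to 7.21 in homeostatic Foxp3+ cells and 5.53 to 6.05 in DEC cells (-1.35 ± 0.27; adjusted p = 0.031).

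Among named genes Epas1, Pde7a and Cd96 differed by route in the converted cells in the direction of the interaction. Pde7a, a cyclic AMP phosphodiesterase of T cells, lay at 7.82, 8.20 and 7.72 in homeostatic Foxp3+ cells and at 9.92 to 10.19 in DEC CD25+ cells (4.51-fold lower; adjusted p = 3.8e-06). Both partner groups lay between 10.62 and 11.28, and the interaction was -1.96 ± 0.32 (adjusted p = 0.0076). Cd96, an adhesion and inhibitory receptor, was 2.16-fold lower in homeostatic converted cells, with an interaction of -1.61 ± 0.31 (adjusted p = 0.028). Epas1, the hypoxia-inducible factor HIF-2 alpha, was 1.84-fold lower in homeostatic converted cells and higher in homeostatic than in DEC partners by 1.68 ± 0.22 (interaction -2.56 ± 0.32; adjusted p = 0.00066).

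**Figure D4:**
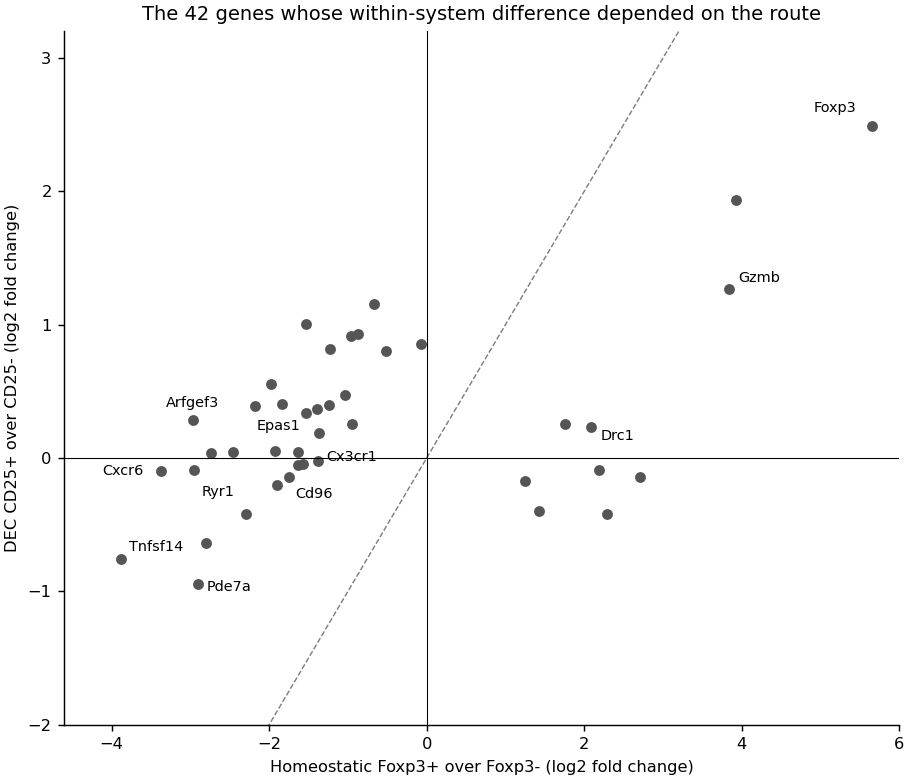
Within-system log2 fold change of converted cells over their partners for the 42 genes whose interaction passed, homeostatic (horizontal) against DEC (vertical); each point is a gene, the dashed line marks equal differences, and no error is drawn. The 10 genes right of the line include Foxp3, Gzmb and Drc1, and the 32 left of it lie under 0 on the horizontal axis and on both sides of 0 on the vertical one.

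Markers of other cell types differed from list to list. In converted cells 9 of 36 tested myeloid and dendritic markers were higher on the homeostatic side and 0 lower by limma, near the 24.1% of all genes, and 21 and 0 between partners. Without both DEC arrays numbered 1 the converted count was 8 and 1. The mean of the list lay at 7.31, 8.58 and 7.97 on homeostatic Foxp3+ arrays, 7.06, 7.61 and 7.64 on DEC CD25+ arrays, 7.87 to 9.04 in homeostatic Foxp3- and 6.47 to 7.13 in DEC CD25- cells. Of the 36 differences between converted cells 24 were positive, and the lowest was -1.52. DEC CD25+ cells held such transcripts too. There 31 of 38 measured members had a mean above 6.27, against 35 in homeostatic Foxp3+ cells, and Csf1r was the highest, at a mean of 10.45. The neutrophil genes S100a8 and Ngp were at least 16.9-fold and 10.8-fold higher in homeostatic converted cells, with array number 2 highest in both homeostatic groups. Lyz1, lysozyme, lay at 10.74, 12.37 and 11.70, whereas Itgam, which encodes the CD11b that the sort excluded, lay at 4.15 to 5.78 on all 13 arrays. CD8 T and NK markers (4 higher, 0 lower of 9 by limma; 3 and 0 without both DEC arrays numbered 1) ranged from 6.64 to 7.56 on homeostatic Foxp3+ and from 5.95 to 6.17 on DEC CD25+ arrays, and Cd8a from 6.79 to 7.58 on all arrays of the converted cells. Ncr1, an NK receptor, lost its call without homeostatic Foxp3+ replicate 2 (adjusted p = 0.18).

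B cell markers gave 0 higher and 2 lower of 13 by limma (15.4%, under the 24.1% of all genes). Their means were 7.17 to 7.26 and 7.50 to 7.61, and Cd79a lay at or under 5.84 on all 13 arrays. Of 4 immunoglobulin chains 2 were higher, and Ighm lay at 11.59, 11.65 and 11.85 against 9.83, 10.80 and 10.31 (2.61-fold; adjusted p = 0.019), a call lost when probe sets were averaged (adjusted p = 0.11). Erythroid and platelet markers gave 4 higher and 1 lower of 10, with means of 6.71, 8.05 and 7.59 against 6.39 to 6.52. The part of these other cells in the granzyme, killer lectin, annexin, S100, Apol11b and Ear3 results was not tested. In bulk RNA, fewer cells of a type and less RNA per cell cannot be told apart. Homeostatic Foxp3+ array 2 had the highest myeloid level of the 3, at 8.58. On that array Gzma (11.03) and Klrd1 (9.58) were the highest of the 3 and Gzmb (12.05) the lowest.

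**Figure D5:**
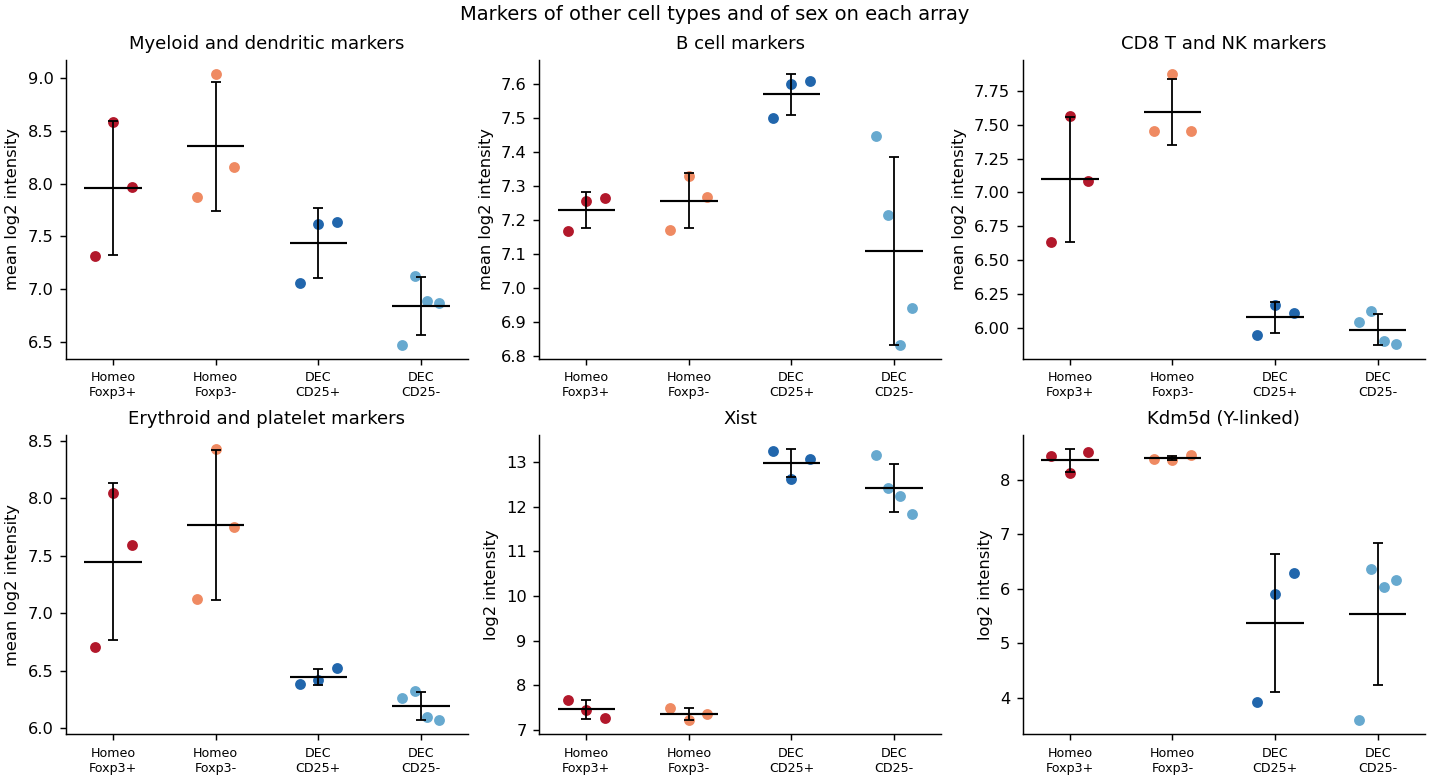
Mean log2 intensity of 4 lists of other cell types, and log2 intensity of Xist and of the Y-linked Kdm5d, on each array (points, in replicate order) of the 4 groups, with the group mean and SD; the vertical axes do not start at 0 and differ between panels. Homeostatic arrays numbered 2 are highest for the myeloid, NK and erythroid lists, and Kdm5d is at 3.93 and 3.59 on the DEC arrays numbered 1.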

How the data were processed

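Sorted CD4+ T cell RNA was amplified by 2 rounds and hybridised to arrays, per the labels' protocols. The deposited values are linear intensity values that the authors made with RMA (version not given in the sources used here), per the series' design text. The log2 values are not the authors' own: log2 of the deposited intensities was taken here with no pseudocount. Annotation named 34945 of 45101 probe sets by 1 symbol, 932 by several, and 18193 genes resulted; of 34741 matched Entrez identifiers 0 changed a symbol. The probe set with the highest mean stood for each gene, and 12516 genes with at least 1 group mean above 77.0 (6.27 in log2) were tested. A mean per group was fitted to all 23 arrays in 9 groups with limma 3.58.1 in R 4.3.3, two-sided, with Benjamini-Hochberg adjustment over the 12516 genes and a threshold of 0.05. Arrays are pools of mice and few, which limits the precision. Residuals of same-number arrays correlated at 0.66, 0.58 and 0.49 in the homeostatic and at 0.39, 0.51 and 0.38 in the DEC system, and at 0.00, -0.23 and 0.07 across systems. Same numbers may thus mark pairs within a system, which the labels do not settle. The main fit left such pairing out. Errors and p values given without a replicate block do not take it into account.

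Genes were named by rule: the markers and sort genes; the top 10 in each direction among calls whose arrays did not overlap and that were not system-wide; the top 5 in each direction among system-wide calls; the 10 smallest interaction p; and up to 4 members per list by p. Genes without a proper name were counted only. Partner values without the dim DEC CD25- arrays were added after the values were seen. The members, lists and rules were chosen with earlier results of these data known. Kif22, Ppp1r15a, Nfkbid, Dusp1 and Btg2 are named for their promoters, and Cd3e, Cd3d, Cd3g, Cd4, Eif2s3y, Lyz1, Csf1r, Itgam, Cd79a and Cd8a as markers of cell type or sex. Promoter windows came from RefSeq (GRCm38.p6); 40 of 49 cell cycle and 22 of 27 immediate early genes matched. The fit was tested on simulated data. Alternatives were other normalizations, filters and probe set rules, fewer arrays in the fit, array weights, limma-trend, replicate blocks, and left-out arrays.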

Additional observations from a re-analysis of the deposited data

Results flagged for a closer look

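In the 4 DEC CD25- arrays, 5 of 139 named genes had 1 array whose gap to its nearest neighbour took up more of the group's range than Dixon's critical value for 4 samples, and chance flags about 1 in 20 such groups. Array 1 was low for Foxp3 (ratio 0.836; 6.92 against 8.23 to 8.48) and for Kdm5d (0.882; 3.59 against 6.03 to 6.36). Array 3, the array with the second-lowest median intensity, was low for Ramp3 (0.916; 7.73) and Cd27 (0.913; 8.01) and high for Il18r1 (0.833; 11.31).

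The within-system difference depended on the route, by the interaction test, for 14 of the named genes. Converted minus partner cells gave a higher signed value in the homeostatic system for Foxp3 (3.17), Gzmb (2.56) and Drc1 (1.85). Foxp3-GFP was the sort marker in the homeostatic system alone. For Foxp3 the effect of that sort and a difference between the routes cannot be told apart. The signed value was lower there for Cxcr6 (-3.27), Arfgef3 (-3.24), Tnfsf14 (-3.12), Ryr1 (-2.86), Ube2e2 (-2.78), Epas1 (-2.56), St6galnac2 (-2.51), Pde7a (-1.96), Lbp (-1.68), Cd96 (-1.61) and Cx3cr1 (-1.35), all on the log2 scale.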

How the results depend on the processing

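The number of genes called between converted cells ranged from 2181 to 3632 when 1 array was left out, the number called in the same direction between partners too from 1642 to 2540, the partner number from 2860 to 4470 and the interaction number from 21 to 77. With array weights 6752 genes were called between converted cells, 3700 of them system-wide, and 292 in the interaction. With the replicate number as a block within each system, the interaction called 235 genes as a random and 89 as a fixed effect; the random block called 3162 between converted cells, where it ended the calls of Ctla4 and St6galnac2 among named genes. Without both DEC arrays numbered 1, 73 interaction genes were called, a setting chosen after seeing the data. Without the pair of dim DEC CD25- arrays, 4348 genes were called between converted cells and 3270 between partners. Averaging probe sets turned the sign of 54 genes called between converted cells and 74 between partners, and quantile normalization turned 5 between partners. Of 3997 alternative values for 139 named genes, 3863 kept their direction and side of the threshold, 113 lost and 15 gained the call, and 6 reversed, none of them called: the Itgae interaction (-0.004 with array weights, from -0.35 to 0.74 when 1 array was left out), the Il2ra interaction (from -0.025 to 0.43) and Lbp between converted cells (0.078 with averaged probe sets, from -0.11 to 0.040 when 1 array was left out). The causes were not tested.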

Other observations

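Interferon-induced genes were higher in homeostatic converted cells in 8 of 28 cases tested and lower in 0 by limma (28.6% against 24.1% of all genes; median 0.46), and in 16 and 1 between partners. Usp18, which damps interferon receptor signals, was at 9.09, 9.03 and 9.29 against 6.67, 7.52 and 7.22 (4.00-fold). Gbp2, a guanylate-binding protein, was 4.14-fold, Ifit3 3.17-fold and Oasl2 at least 4.12-fold higher, and all 4 were system-wide. After quantile or cyclic loess normalization 2 members were lower. Of 11 MHC class II pathway genes 2 were higher and 1 lower (27.3%): H2-Eb1 was 2.22-fold higher, a call lost without both DEC arrays numbered 1 (adjusted p = 0.11), and H2-Oa 2.02-fold. Of 6 killer lectin receptors 4 were higher and 0 lower by limma, and 4 members were system-wide. Klrd1 varied over 7.02, 9.58 and 8.43 on the homeostatic Foxp3+ arrays, with the highest value on array 2.

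Glycolysis and hypoxia genes gave 4 higher and 1 lower of 21 (23.8%), near the 24.1% of all genes. Ldha, lactate dehydrogenase, was 2.37-fold and Pgk1 2.04-fold higher in homeostatic converted cells, while Slc2a1, the glucose transporter, was 3.07-fold lower, at 8.23, 8.47 and 8.55 against 9.72, 9.85 and 10.53. Cholesterol and fatty acid synthesis gave 3 and 1 of 21 (19.0%), with Scd2, a desaturase, 5.59-fold higher and Insig1, a sterol sensor, 5.21-fold lower. Survival and death genes gave 3 and 2 of 19 (26.3%), with Birc3 2.11-fold lower and Bad 1.69-fold higher.

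Helper lists were small, and their counts stand beside the 24.1% called of all genes. Th1 genes gave 5 higher and 1 lower of 9, with Cxcr3 3.47-fold higher, and 5 of the 9 were system-wide. Th2 genes gave 2 and 0 of 8 by limma, with Il17rb at least 3.24-fold higher, Th17 genes 1 and 1 of 8, follicular helper genes 1 and 2 of 13, with Il6st 3.48-fold lower, and chemokines and cytokines 2 and 3 of 23, with Ccl5 7.05-fold higher. Among 20 genes of gamma chain receptors and the STAT5 axis 5 were higher and 2 lower, with Il2rb 3.28-fold and Osm 2.44-fold higher. Of 4 sex-linked genes Kdm5d was at least 7.91-fold higher and Xist lower in homeostatic cells.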
